A study of Mus musculus with 9 samples.

Results

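The proteasome genes of mouse ntESCs, embryonic stem cells made by nuclear transfer, are described here across 3 genotypes of Terc, the gene of the telomerase RNA. The members were all genes whose symbol in the array's annotation begins with Psma, Psmb, Psmc, Psmd, Psme, Psmf or Psmg followed by a digit. That gave 45 genes, read by 67 probes, among 18666 features tested (16110 named genes and the probes without a gene name). Each gene was represented by the probe with the highest mean over the 9 arrays, and 18 of the 45 genes had more than 1 probe.

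The groups were ntESCs with no copy of Terc (Terc-/-), with 1 copy (Terc+/-) and with both copies (Terc+/+), each measured on 3 bead arrays. They were obtained by moving the nucleus of a body cell into an egg and culturing the resulting embryo. All cells had the C57BL/6 strain and the same culture, a serum-free KSR/KO-DMEM medium with LIF over embryonic fibroblasts (MEF) that mitomycin-C had stopped from dividing. The labels state that the fibroblasts were taken off after trypsin treatment and before RNA extraction, and call the 3 samples of a genotype biological repeats. They do not say whether the repeats were separate lines or cultures of 1 line, so p-values measure the spread between these samples, which may be partly technical. No probe was paired with Terc (0 probes), so the genotypes rest on the labels.

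The proteasome is the protease that degrades proteins tagged with ubiquitin. Its 20S core is a barrel of alpha rings and beta rings, and the cutting sites lie inside on the beta subunits Psmb5 (chymotrypsin-like), Psmb6 (caspase-like) and Psmb7 (trypsin-like). The 19S regulatory particle caps the core: a ring of ATPases (the Psmc genes) unfolds the substrate and the non-ATPase subunits (most Psmd genes) bind and remove ubiquitin. After interferon, Psmb8, Psmb9 and Psmb10 replace the standard cutting subunits and form the immunoproteasome, and Psme1 with Psme2 forms an alternative cap. Human embryonic stem cells are known for high proteasome activity, which has been tied to the lid subunit PSMD11.

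The promoters of 4 members are shown. Psmd10, Psmd11 and Psma4 had some of the smallest p-values in the comparisons with Terc+/+, with higher means without or with 1 copy of Terc. Psme1 had lower means, with an unadjusted limma p under 0.05 against Terc+/+ in Terc-/- but not in Terc+/-. It was among the 4 members with the smallest p in Terc-/- against Terc+/-. Each window is from RefSeq's GRCm38.p6 mouse assembly, runs from 250 bases before to 50 bases after the annotated start, and is written along the gene's strand. Capitals mark matches on either strand to CCAAT, which the factor NF-Y binds, or to TGANNNNGC, the core of the antioxidant response element through which Nfe2l1 acts on proteasome genes. The Psmd10 window is chrX:140956662-140956961 on the minus strand, that of Psmd11 is chr11:80428365-80428664, that of Psma4 is chr9:54950609-54950908 and that of Psme1 is chr14:55578244-55578543, the last 3 on the plus strand.
Psmd10: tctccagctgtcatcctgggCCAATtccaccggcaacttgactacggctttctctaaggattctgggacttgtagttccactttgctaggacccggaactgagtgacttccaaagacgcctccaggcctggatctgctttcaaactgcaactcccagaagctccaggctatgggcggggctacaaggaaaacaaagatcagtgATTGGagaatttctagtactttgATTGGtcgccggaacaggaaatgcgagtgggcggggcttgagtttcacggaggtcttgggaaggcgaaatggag
Psmd11: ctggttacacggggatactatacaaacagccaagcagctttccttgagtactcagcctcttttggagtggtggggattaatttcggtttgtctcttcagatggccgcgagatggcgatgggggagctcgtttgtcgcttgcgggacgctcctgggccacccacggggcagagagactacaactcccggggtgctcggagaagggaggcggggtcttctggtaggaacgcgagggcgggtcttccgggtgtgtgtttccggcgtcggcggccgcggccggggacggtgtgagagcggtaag
Psma4: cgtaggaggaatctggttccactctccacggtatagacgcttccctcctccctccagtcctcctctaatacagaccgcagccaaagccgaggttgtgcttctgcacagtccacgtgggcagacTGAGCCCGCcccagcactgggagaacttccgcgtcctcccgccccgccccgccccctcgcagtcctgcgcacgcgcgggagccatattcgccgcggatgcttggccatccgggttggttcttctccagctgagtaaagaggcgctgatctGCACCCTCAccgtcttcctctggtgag
Psme1: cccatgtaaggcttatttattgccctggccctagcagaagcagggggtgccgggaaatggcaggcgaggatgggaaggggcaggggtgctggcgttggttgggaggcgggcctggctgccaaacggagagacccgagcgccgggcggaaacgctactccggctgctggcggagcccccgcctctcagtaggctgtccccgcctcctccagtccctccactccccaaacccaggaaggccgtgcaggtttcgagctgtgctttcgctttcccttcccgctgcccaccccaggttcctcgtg

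The Psmd10 window held 3 CCAAT matches, which began at -230, -47 and -24 from the start, and no TGANNNNGC match. The Psma4 window held 2 TGANNNNGC matches, at -127 and 23, and no CCAAT match. The windows of Psmd11 and Psme1 held neither motif, which says only that these letters are not in these windows, and no matches overlapped. Of the 45 members, 39 had a window, with 43 windows in all. TGANNNNGC was found in 25 of the 43 windows (58.1%), against 41.3% of all 32851 promoters of the same length, and CCAAT in 15 (34.9%), against 37.4%. A match is a description of sequence, not a binding site.

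The 45 genes comprised all 7 standard beta subunits and all 6 ATPases, 7 alpha subunits, 3 immunoproteasome beta subunits, 10 non-ATPase subunits, 6 assembly chaperones and 4 activators. The other 2, Psmc3ip and Psme3ip1, share only the start of the symbol: they encode proteins that bind a subunit or activator and are not parts of the proteasome. Psma8, Psmb11, Psmd3, Psmg4, Psme2b and Psmf1 were not analysed here. No filter on low values was used, so all 45 genes were tested. The mean of 42 members lay above 5.94, the median of all values in the table. Psma1, Psma6 and Psmb8 lay below it, in a range where signal and background cannot be separated from the deposited values.

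**Figure D1:**
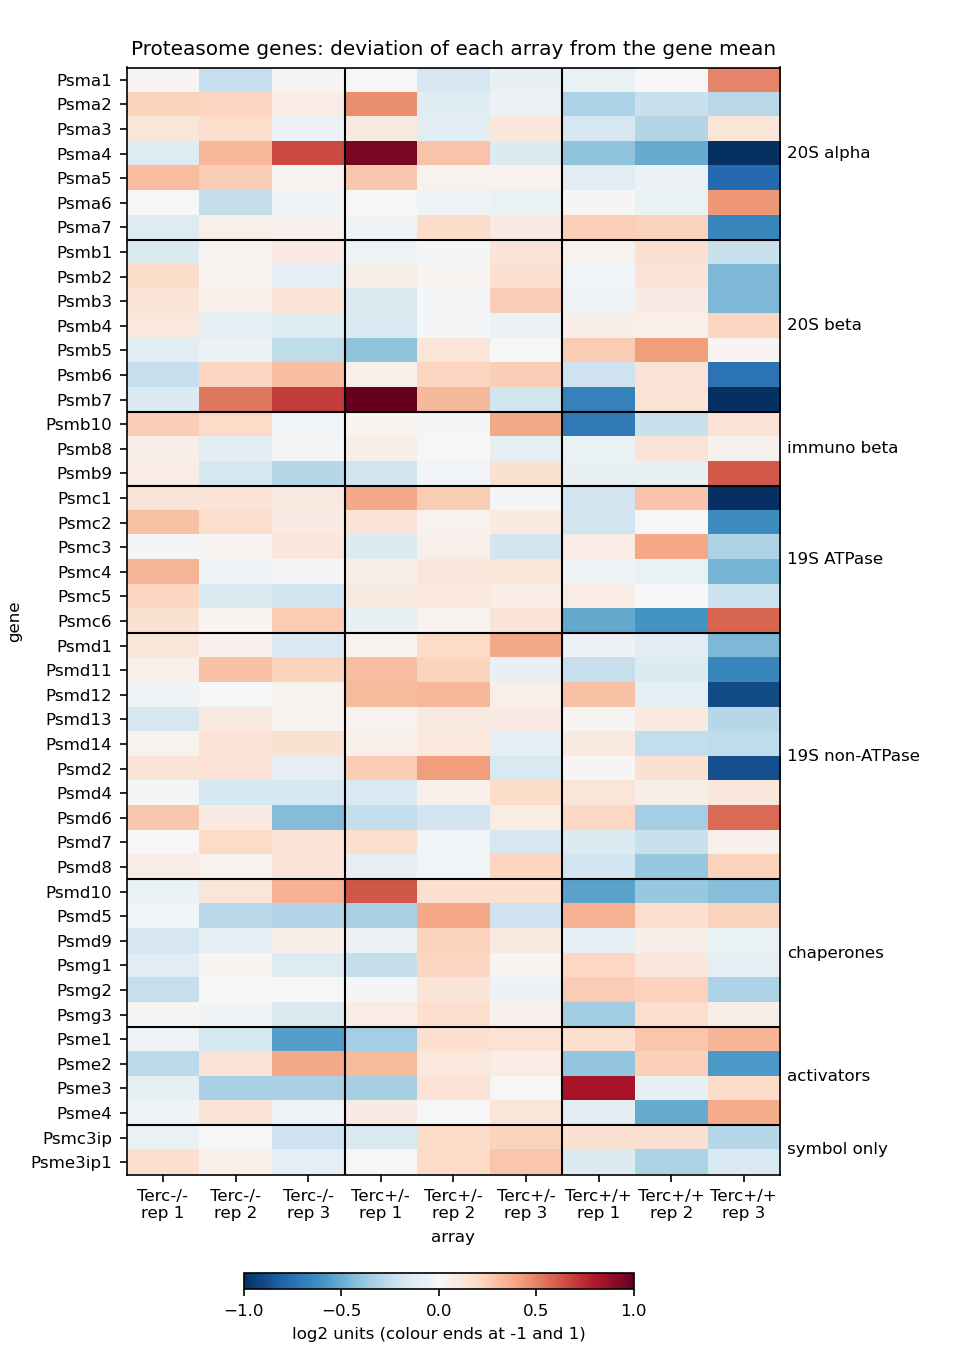
Deviation of each array (columns, with Terc-/- at the left, then Terc+/- and Terc+/+) from the gene's mean over the 9 arrays (rows, grouped by role), in log2 units from blue (low) to red (high), with the colour ending at -1 and 1. Terc+/+ replicate 3 was the lowest array for 22 of the 45 genes.

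One array stood apart. Terc+/+ replicate 3 was the lowest of the 9 arrays for 22 of the 45 members (48.9%), against 20.9% of all features, and the highest for 9, against 23.5%. It was the lowest array for 5 of 6 ATPases, 5 of 7 standard beta subunits and 6 of 10 non-ATPase subunits, for 0 of 3 immunoproteasome subunits and for 1 of 6 chaperones. The mean deviation of the 45 members from their own means was 0.028, 0.039 and 0.0077 in the Terc-/- arrays, 0.062, 0.10 and 0.055 in the Terc+/- arrays, and -0.057, -0.022 and -0.21 in the Terc+/+ arrays, all on the log2 scale. The median SD of a member within a genotype was 0.12 in Terc-/-, 0.14 in Terc+/- and 0.28 in Terc+/+, against 0.11, 0.11 and 0.14 for all features in the same genotypes. The SD was largest in Terc+/+ for 32 of the 45 members (71.1%), against 48.2% of all features. These backgrounds are not matched for level: 42 of the 45 members had a mean above 6, against 9321 of 18666 features. For each role and each gene described by its arrays, a difference from Terc+/+ is therefore given with and without this array. For some genes it is given for Terc-/- only or for Terc+/- only. Such alternatives were chosen after seeing the data where they concern roles, other lists and genes named after their values were seen.

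Markers of the fibroblast feeder layer also varied within genotypes. The summed level, as the mean deviation of 32 fibroblast markers, was -0.22, 0.095 and 1.16 in the Terc-/- arrays, 0.84, -0.69 and -0.85 in the Terc+/- arrays, and -0.062, 0.92 and -1.20 in the Terc+/+ arrays. Of these markers, 1 of 32 had a mean below the median of all values. Terc+/+ replicate 3 thus had the lowest value both of the members and of the fibroblast markers. All 16 markers of pluripotent stem cells lay above that median, and 6 of 8 markers of macrophages and blood below it. In bulk RNA, fewer cells of a type and less RNA per cell cannot be told apart. The part of fibroblast RNA in the results below was not tested beyond the fit that holds the fibroblast score as a covariate.

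**Figure D2:**
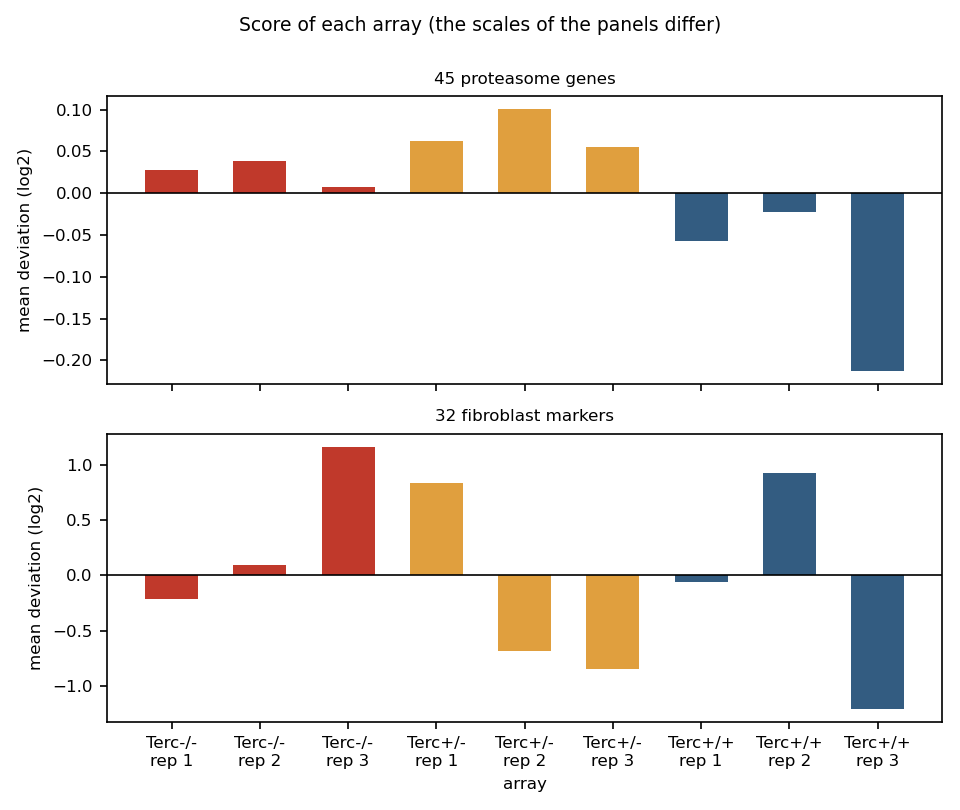
Mean deviation (log2 units) of the 45 proteasome genes (top) and of 32 fibroblast markers (bottom) in each array, Terc-/- at the left, then Terc+/- and Terc+/+; the scales of the panels differ. Terc+/+ replicate 3 has the lowest bar in both panels, -0.21 and -1.20.

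Terc-/- against Terc+/+ asks whether proteasome transcripts differed without telomerase RNA. No member passed the test: limma called 0 of 45 members at an adjusted p under 0.05, while it called 0.0536% of all features, and the smallest adjusted p was 0.212, for Psmd10. Unadjusted p was under 0.05 with a higher mean for 7 members, Psma2, Psma4, Psma5, Psmc2, Psmd10, Psmd11 and Psme3ip1, where the background was 5.3% of all features. It was under 0.05 with a lower mean for 5 members, Psmb5, Psmd4, Psmd5, Psme1 and Psme3, where the background was 5.31%. For these 7 and these 5 genes all arrays of one genotype lay on one side of the other's (15.6% and 11.1% of the members), against 7.49% and 7.43% of all features. In all, 27 of 45 means were higher in Terc-/- (60.0%, background 51.5%). The median log2 fold change was 0.15 for members and 0.0048 for all features. Without Terc+/+ replicate 3 it was 0.029, the number of higher means was 23, and limma called 1 member, Psmc6. Limma then called 1.54% of all features. Unadjusted p was then under 0.05 for 12 members with a higher mean (background 8.33%) and 5 with a lower mean (background 7.27%).

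Terc+/- against Terc+/+ asks the same of cells with 1 copy. It uses the same Terc+/+ arrays, so it is not independent of the comparison above. Limma called 0 of 45 members, with 0.0% of all features called, and the smallest adjusted p was 0.191, again for Psmd10. Unadjusted p was under 0.05 with a higher mean for 8 members (background 4.73%), namely Psma2, Psma4, Psmb7, Psmc2, Psmd1, Psmd10, Psmd11 and Psme3ip1, and with a lower mean for 0 members (background 3.86%). The arrays did not overlap for 9 members with a higher mean (background 7.29%) and for 1 with a lower mean, Psmb4 (background 5.3%). Of the 45 means, 31 were higher in Terc+/- (68.9%, background 51.3%). The median log2 fold change was 0.15, against 0.0042 for all features. Without Terc+/+ replicate 3 it was 0.099, 29 means were higher, and 0 members were called (background 0.15%). Unadjusted p was then under 0.05 for 10 with a higher mean (background 7.97%) and 2 with a lower mean (background 5.83%).

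**Figure D3:**
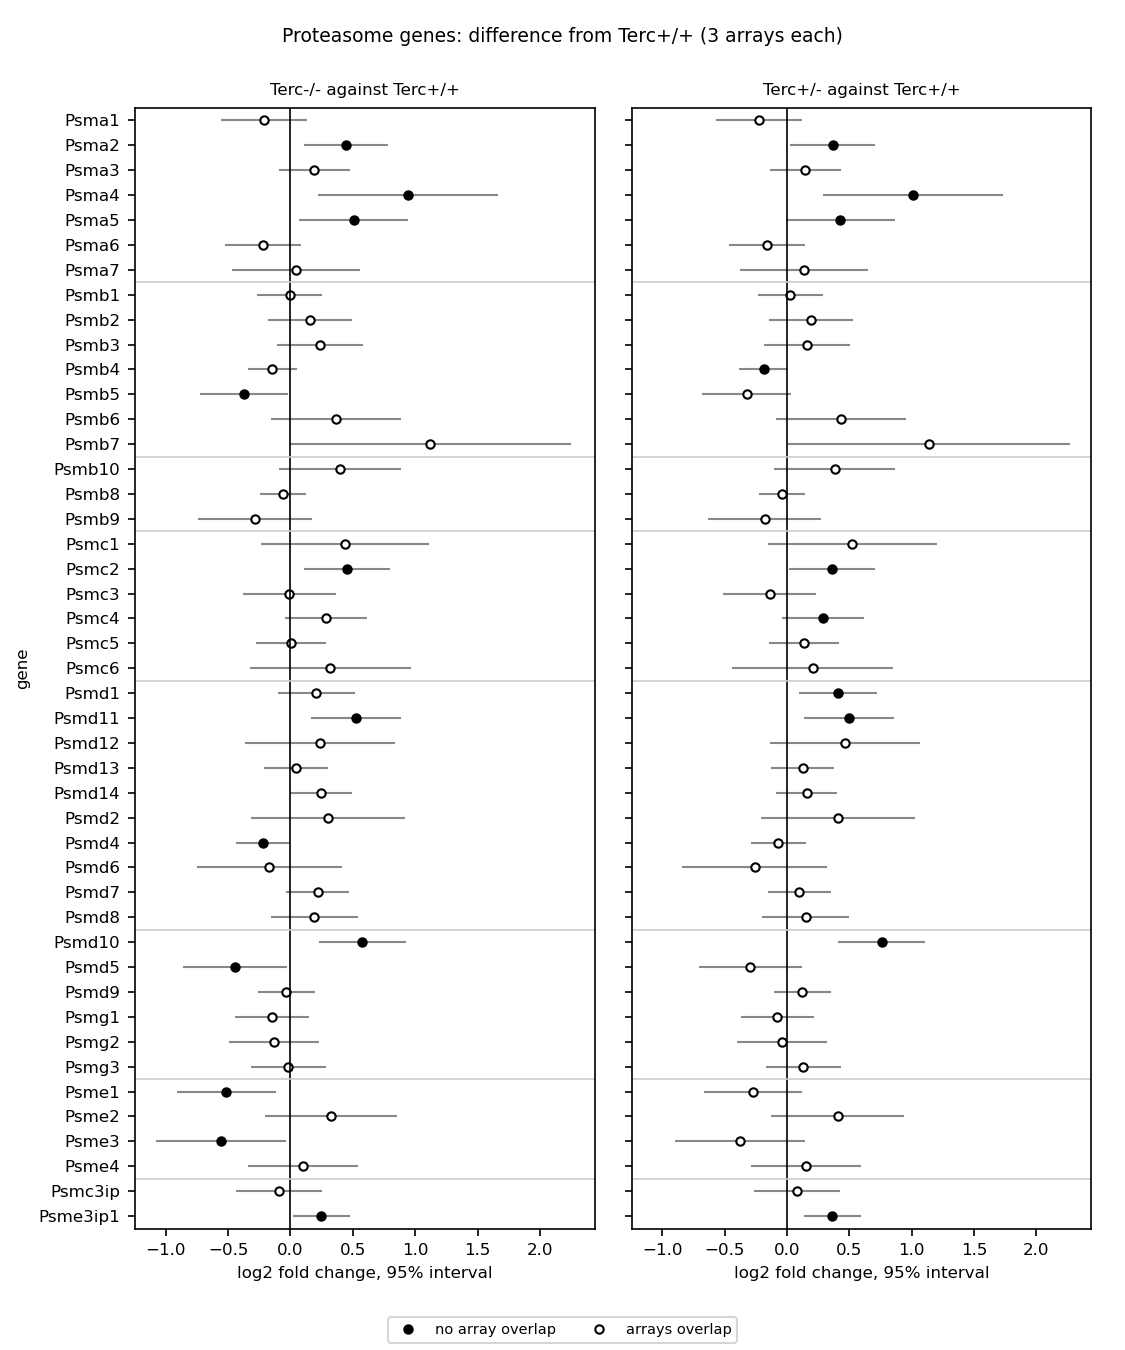
Log2 fold change (points) of each of the 45 proteasome genes with its 95% interval from limma (lines, not adjusted for the number of genes), for Terc-/- against Terc+/+ (left) and Terc+/- against Terc+/+ (right). Filled points are genes whose 3 arrays of one genotype all lay on one side of the other genotype's, 12 genes at the left and 10 at the right.

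The mean of Terc-/- and Terc+/- was also set against Terc+/+, which uses all 9 arrays. Limma called 0 of 45 members (background 0.193%), and the smallest adjusted p was 0.0901, for Psmd10. Unadjusted p was under 0.05 with a higher mean for 10 members (22.2%, background 6.14%) and with a lower mean for 4, Psmb5, Psmd5, Psme1 and Psme3 (background 5.58%). For 7 members every Terc-/- and Terc+/- array lay above every Terc+/+ array (15.6%, background 3.48%), and for 0 members below (background 2.88%). These 7 were Psma2, Psma4, Psma5, Psmc2, Psmd10, Psmd11 and Psme3ip1. The median log2 fold change was 0.16, against 0.0061 for all features, and it was 0.034 without Terc+/+ replicate 3. Of the 45 means, 30 were higher (66.7%, background 52.1%), and 26 were higher without that array. Unadjusted p was then under 0.05 for 12 members with a higher mean (background 9.21%) and 4 with a lower mean (background 7.29%). In that fit 1 member was called, Psmc6 (0.64, limma adjusted p = 0.0212), as were 2.47% of all features.

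Terc-/- was set against Terc+/- to compare no copy with 1 copy of Terc. Limma called 0 of 45 members (0.0% of all features), with the smallest adjusted p at 1.00, and unadjusted p was under 0.05 for 0 members in either direction (backgrounds 0.814% higher and 0.943% lower). The log2 fold changes of all members lay between -0.24 and 0.13. The mean was higher in Terc-/- for 15 of 45 members (33.3%, background 48.2%), and the median was -0.057, against -0.0043 for all features. The arrays did not overlap for 0 members with a higher mean (background 3.76%) and for 2 with a lower mean, the lid subunit Psmd12 and the chaperone Psmg3 (background 3.94%). All 6 assembly chaperones and all 4 activators had the lower mean in Terc-/-, at medians of -0.15 and -0.13, without any of them passing the test. Without Terc+/- replicate 2 these were 4 of 6 chaperones and a median of -0.06, and without Terc-/- replicate 1 the chaperone median was -0.09 and 3 of 4 activators were lower. In the same comparison all 32 fibroblast markers had the higher mean in Terc-/-, at a median of 0.51, with 0 called and unadjusted p under 0.05 for 0. Without Terc-/- replicate 3 these were 25 of 32 and 0.12. The part of fibroblast RNA in these differences was not tested beyond the covariate fit, which called 0 members here.

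The alpha ring forms the outer face and the gate of the core. In both comparisons with Terc+/+, 5 of its 7 genes had the higher mean and 2 the lower, the 2 being the dim Psma1 and Psma6. The median log2 fold change was 0.19 in Terc-/- and 0.15 in Terc+/-, and without Terc+/+ replicate 3 it was 0.28 and 0.20, with 4 higher means in each. Psma4 had the second widest range of all members, 1.99 log2 units over the 9 arrays. Its level was 10.92, 11.38 and 11.71 in the Terc-/- arrays, 11.99, 11.33 and 10.91 in the Terc+/- arrays, and 10.65, 10.54 and 10.00 in the Terc+/+ arrays. All 6 arrays without or with 1 copy of Terc lay above all 3 Terc+/+ arrays, but the arrays within each genotype also spread widely. The log2 fold change was 0.94 (SE 0.31, limma adjusted p = 0.325) in Terc-/- and 1.01 (SE 0.31, adjusted p = 0.383) in Terc+/-, and without Terc+/+ replicate 3 it was 0.74 and 0.81.

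Psma2, another alpha subunit, was the member of this ring with the tightest Terc+/+ values. It had 12.99, 12.98 and 12.83 in the Terc-/- arrays, 13.23, 12.64 and 12.70 in the Terc+/- arrays, and 12.45, 12.54 and 12.48 in the Terc+/+ arrays. Here Terc+/+ replicate 3 did not stand apart, and the log2 fold change in Terc-/- was 0.45 with all arrays (SE 0.15, limma adjusted p = 0.321) and 0.44 without it. In Terc+/- it was 0.37 (adjusted p = 0.541) and 0.36. Psma5, named after its values were seen, had 13.10, 13.04 and 12.82 in Terc-/- arrays, 13.06, 12.83 and 12.83 in Terc+/- arrays and 12.68, 12.73 and 12.01 in Terc+/+ arrays. Its log2 fold change was 0.51 in Terc-/- and 0.43 in Terc+/-, and 0.28 and 0.20 without Terc+/+ replicate 3, its lowest array.

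The standard beta ring carries the cutting sites. Psmb7, the trypsin-like subunit, had the widest range of all members, 2.74 log2 units or 6.70-fold. It had 10.85, 11.52 and 11.70 in the Terc-/- arrays, 12.02, 11.32 and 10.81 in the Terc+/- arrays, and 10.32, 11.13 and 9.28 in the Terc+/+ arrays. Terc+/+ replicate 2 lay within the range of both other genotypes and replicate 3 far below it. Within each genotype the arrays ranked for Psmb7 in the order of the fibroblast score, which was seen after the values were known. The part of fibroblast RNA in this was not tested beyond the covariate fit. The log2 fold change was 1.12 (SE 0.49, limma adjusted p = 0.479) in Terc-/- and 1.14 (SE 0.49, adjusted p = 0.576) in Terc+/-, and 0.63 and 0.66 without Terc+/+ replicate 3. Its 3 probes gave unequal differences between the mean of Terc-/- and Terc+/- and Terc+/+, namely 1.13, 0.87 and 0.22.

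The other 2 standard cutting subunits differed in direction from each other. Psmb5, the chymotrypsin-like subunit, had 10.55, 10.59 and 10.40 in the Terc-/- arrays, 10.25, 10.78 and 10.66 in the Terc+/- arrays, and 10.91, 11.07 and 10.67 in the Terc+/+ arrays. All Terc-/- arrays lay below all Terc+/+ arrays, while Terc+/- overlapped Terc+/+. Against Terc+/+, the log2 fold change was -0.37 (SE 0.15, limma adjusted p = 0.449) in Terc-/- and -0.32 (SE 0.15, adjusted p = 0.633) in Terc+/-, and -0.48 and -0.43 without Terc+/+ replicate 3. Psmb6, the caspase-like subunit, had 11.91, 12.35 and 12.45 in Terc-/- arrays, 12.19, 12.36 and 12.39 in Terc+/- arrays and 11.94, 12.29 and 11.40 in Terc+/+ arrays, with overlap throughout. Its log2 fold change was 0.36 (adjusted p = 0.659) in Terc-/- and 0.44 (adjusted p = 0.680) in Terc+/-, and came to 0.12 and 0.20 without Terc+/+ replicate 3, its lowest array. Over the 7 genes of the ring, 4 means were higher in Terc-/- and 5 in Terc+/- than in Terc+/+, with medians of 0.15 and 0.16. Terc+/+ replicate 3 was the lowest array for 5 of the 7, and without it 3 means were higher in Terc-/- and 4 in Terc+/-, with medians of -0.01 and 0.0038.

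**Figure D4:**
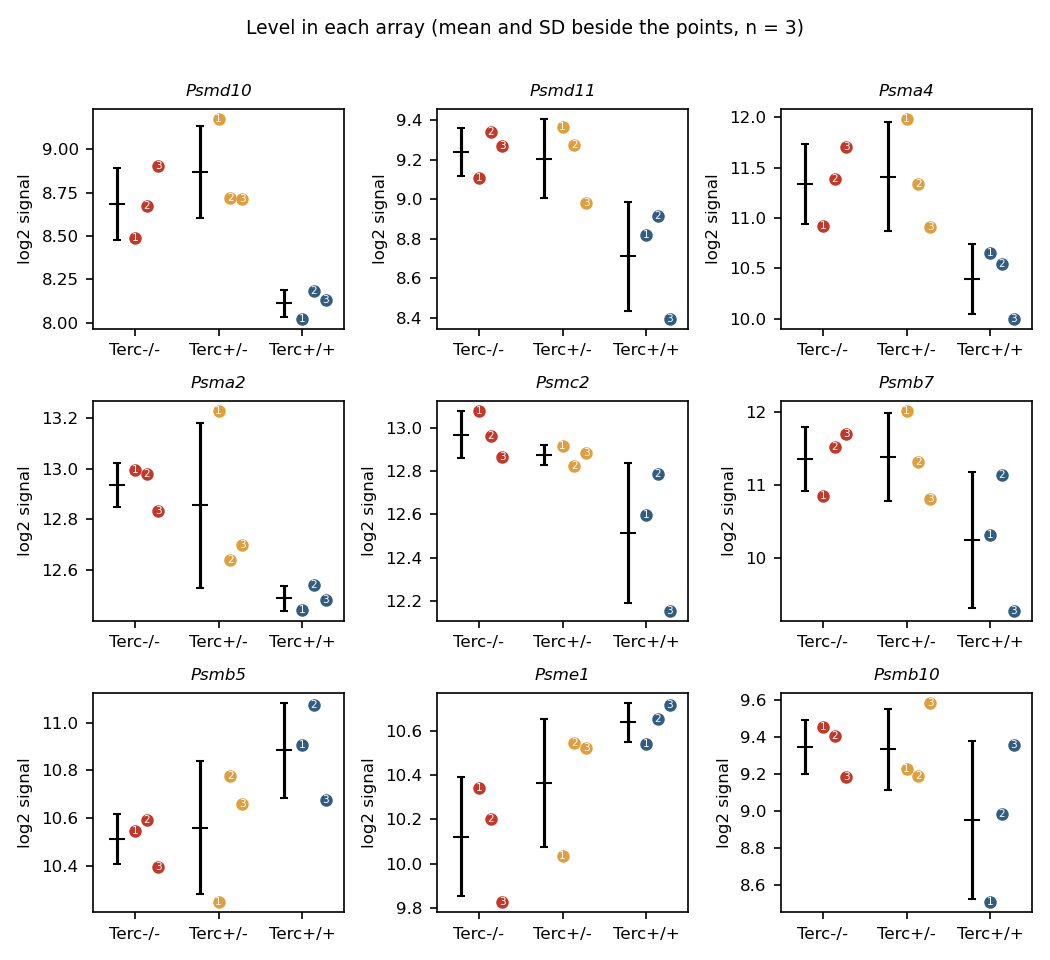
Log2 signal of 9 named proteasome genes in each array (numbered points, the number being the replicate), with Terc-/- at the left, Terc+/- in the middle and Terc+/+ at the right; the bar beside the points is the mean and SD of 3 arrays, and the vertical scales differ. Psmd10, Psmd11, Psma4, Psma2 and Psmc2 have all Terc-/- and Terc+/- points above all Terc+/+ points, and Psmb7, Psmb5, Psme1 and Psmb10 do not separate in this way.

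The immunoproteasome subunits showed no common direction. Of the 3, 1 had the higher mean in both comparisons with Terc+/+, at medians of -0.06 in Terc-/- and -0.04 in Terc+/-, and without Terc+/+ replicate 3 these were 1 and 2 higher means and medians of -0.06 and 0.05. Psmb10, which takes the place of Psmb7, had 9.46, 9.41 and 9.18 in the Terc-/- arrays, 9.23, 9.19 and 9.59 in the Terc+/- arrays, and 8.51, 8.99 and 9.36 in the Terc+/+ arrays. Terc+/+ replicate 3 was here the highest of its genotype. The log2 fold change of Psmb10 was larger without that array, 0.60 in Terc-/- and 0.59 in Terc+/-, than with it, 0.40 (SE 0.21, limma adjusted p = 0.579) and 0.38 (SE 0.21, adjusted p = 0.702). The second probe of Psmb10 gave less over all arrays, 0.24 in Terc-/- and 0.21 in Terc+/-.

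Psmb9, which takes the place of Psmb6, had 6.78, 6.53 and 6.43 in Terc-/- arrays, 6.51, 6.68 and 6.86 in Terc+/- arrays and 6.64, 6.64 and 7.32 in Terc+/+ arrays. Its log2 fold change was -0.28 (adjusted p = 0.706) in Terc-/- and -0.18 (adjusted p = 0.885) in Terc+/-, and without Terc+/+ replicate 3, its highest array, these were -0.06 and 0.05, with the sign in Terc+/- turned. Psmb8, which takes the place of Psmb5, stayed near the floor of the table. It had 5.85, 5.68 and 5.77 in Terc-/- arrays, 5.86, 5.80 and 5.70 in Terc+/- arrays and 5.73, 5.92 and 5.84 in Terc+/+ arrays, the smallest range of all members at 0.24. Its log2 fold change was -0.06 in Terc-/- and -0.04 in Terc+/-, both with and without Terc+/+ replicate 3.

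The ATPase ring had medians of 0.30 in Terc-/- and 0.25 in Terc+/- against Terc+/+, with 5 of 6 means higher and Psmc3 as the exception. Terc+/+ replicate 3 was the lowest array for 5 of the 6 genes, and without it the medians were 0.11 and 0.15, with 4 and 5 higher means. Psmc2 had 13.08, 12.96 and 12.86 in the Terc-/- arrays, 12.92, 12.82 and 12.88 in the Terc+/- arrays, and 12.60, 12.79 and 12.16 in the Terc+/+ arrays. It did not overlap, with the nearest arrays 12.82 in Terc+/- and 12.79 in Terc+/+. Psmc2 had a log2 fold change of 0.46 (SE 0.15, limma adjusted p = 0.319) in Terc-/- and 0.36 (SE 0.15, adjusted p = 0.562) in Terc+/-, and 0.28 and 0.18 without Terc+/+ replicate 3.

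Psmc1 had the third widest range of the members, 1.43 log2 units. It had 10.97, 10.98 and 10.93 in the Terc-/- arrays, 11.22, 11.10 and 10.82 in the Terc+/- arrays, and 10.66, 11.13 and 9.79 in the Terc+/+ arrays. A single array, Terc+/+ replicate 3, set this range, and the log2 fold change in Terc-/- was 0.44 (SE 0.29, limma adjusted p = 0.687) with it and 0.07 without it. In Terc+/- it was 0.52 (adjusted p = 0.714) with it and 0.16 without it. Psmc6, named after its values were seen, went the other way. It had 7.01, 6.88 and 7.11 in Terc-/- arrays, 6.78, 6.89 and 6.99 in Terc+/- arrays and 6.34, 6.26 and 7.44 in Terc+/+ arrays, where replicate 3 was the highest of all 9. Over all 9 arrays its log2 fold change was 0.32 in Terc-/- and 0.21 in Terc+/-, and neither passed the test. Without Terc+/+ replicate 3 it was 0.70 (SE 0.10, limma adjusted p = 0.0271) in Terc-/-, which passed the test, as did 1.54% of all features. In Terc+/- it was then 0.59 (limma adjusted p = 0.0683), which did not pass.

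The non-ATPase subunits of the 19S particle had 8 of 10 higher means in both comparisons with Terc+/+, with medians of 0.21 in Terc-/- and 0.15 in Terc+/-. Terc+/+ replicate 3 was the lowest array for 6 of the 10, and without it 6 means were higher in Terc-/- and 8 in Terc+/-, with medians of 0.06 and 0.12. Psmd11, a scaffold of the lid, had 9.11, 9.34 and 9.27 in the Terc-/- arrays, 9.36, 9.28 and 8.98 in the Terc+/- arrays, and 8.82, 8.92 and 8.40 in the Terc+/+ arrays. The genotypes did not overlap, and the nearest arrays were 8.98 in Terc+/- and 8.92 in Terc+/+. Psmd11 had a log2 fold change of 0.53 (SE 0.16, limma adjusted p = 0.264) in Terc-/- and 0.49 (SE 0.16, adjusted p = 0.401) in Terc+/-. Without Terc+/+ replicate 3 these were 0.37 and 0.34. Its other bright probe gave 0.30 in Terc-/- and 0.10 in Terc+/-, less than the probe used.

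Psmd1, the scaffold of the base, had 8.62, 8.54 and 8.34 in the Terc-/- arrays, 8.53, 8.69 and 8.88 in the Terc+/- arrays, and 8.44, 8.39 and 8.05 in the Terc+/+ arrays. Only the Terc+/- arrays lay clear of Terc+/+, at a log2 fold change of 0.41 (SE 0.14, limma adjusted p = 0.421), against 0.21 (adjusted p = 0.673) in Terc-/-. Without Terc+/+ replicate 3, its lowest array, the Terc+/- value was 0.29 and the Terc-/- value 0.09. Whether these differ was tested directly by Terc-/- against Terc+/-, at -0.20 (SE 0.14, adjusted p = 1.00). Psmd4, the ubiquitin receptor, had 12.75, 12.59 and 12.59 in Terc-/- arrays, 12.62, 12.82 and 12.95 in Terc+/- arrays and 12.89, 12.83 and 12.88 in Terc+/+ arrays. All Terc-/- arrays lay below all Terc+/+ arrays, by a log2 fold change of -0.22 (SE 0.09, adjusted p = 0.460), or -0.21 without Terc+/+ replicate 3. In Terc+/- it was -0.07, or -0.06 without that array.

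Psmd10, also called gankyrin, is a chaperone of the assembling 19S base and is known as an oncoprotein that binds Rb and Mdm2. It had the smallest p of all members in each comparison with Terc+/+. It had 8.49, 8.67 and 8.90 in the Terc-/- arrays, 9.18, 8.72 and 8.71 in the Terc+/- arrays, and 8.02, 8.18 and 8.13 in the Terc+/+ arrays. The lowest array without or with 1 copy of Terc, 8.49, lay above the highest Terc+/+ array, 8.18. The difference was 1.49-fold in Terc-/- (95% interval 1.17 to 1.90, limma adjusted p = 0.212) and 1.69-fold in Terc+/- (1.33 to 2.15, adjusted p = 0.191).

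For the mean of Terc-/- and Terc+/- the difference was 1.59-fold (1.29 to 1.96, limma adjusted p = 0.0901), and no adjusted p passed 0.05. Terc+/+ replicate 3 lay between the other 2 Terc+/+ arrays for Psmd10, and without it the log2 fold changes were 0.59 in Terc-/- and 0.77 in Terc+/-, against 0.58 and 0.76 with it. The gene had 3 probes, which gave 0.58, 0.62 and 0.64 in Terc-/- and 0.76, 0.71 and 0.90 in Terc+/-. With the fibroblast score as a covariate, Psmd10 passed the test in Terc+/- (0.78, limma adjusted p = 0.0318) and in the mean of Terc-/- and Terc+/- (0.64, adjusted p = 0.0225). There the fit called 1.01% and 2.82% of all features, against 0.0% and 0.193% without the covariate. Psmd10 did not pass in Terc-/-, where the covariate fit called 0 members (background 0.777%).

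In Terc-/-, 5 of the 6 chaperones had the lower mean, with a median of -0.08, and without Terc+/+ replicate 3 these were 4 of 6 and -0.14. Without Terc+/+ replicate 2 they were 3 of 6 and -0.01. In Terc+/-, 3 had the higher and 3 the lower mean, with a median of 0.04, or -0.03 without Terc+/+ replicate 3. Psmd5, a chaperone of the base named after its values were seen, had 8.70, 8.44 and 8.43 in Terc-/- arrays, 8.40, 9.11 and 8.51 in Terc+/- arrays and 9.07, 8.89 and 8.94 in Terc+/+ arrays, a log2 fold change of -0.44 (SE 0.18, limma adjusted p = 0.433) in Terc-/- and -0.46 without Terc+/+ replicate 3. Psmd9, another base chaperone, had 7.00, 7.08 and 7.24 in Terc-/- arrays, 7.11, 7.40 and 7.27 in Terc+/- arrays and 7.07, 7.24 and 7.11 in Terc+/+ arrays. These overlapped throughout, at log2 fold changes of -0.03 and 0.12, or -0.05 and 0.11 without Terc+/+ replicate 3. Its second probe gave 0.28 and 0.35, so the direction in Terc-/- depended on the probe.

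The activators are caps that open the core without ATP. Of the 4, 2 had the higher and 2 the lower mean in both comparisons with Terc+/+, with medians of -0.21 in Terc-/- and -0.06 in Terc+/-, or -0.16 and 0.0057 without Terc+/+ replicate 3. Psme1, the alpha subunit of the interferon-induced cap, had 10.34, 10.20 and 9.83 in the Terc-/- arrays, 10.03, 10.54 and 10.52 in the Terc+/- arrays, and 10.54, 10.65 and 10.72 in the Terc+/+ arrays. All Terc-/- arrays lay below all Terc+/+ arrays. Psme1 had a log2 fold change of -0.51 (SE 0.17, limma adjusted p = 0.329) in Terc-/- and -0.27 (SE 0.17, adjusted p = 0.761) in Terc+/-, and -0.47 and -0.23 without Terc+/+ replicate 3. Its second probe gave -0.56 and -0.36 over all arrays. Psme2, the partner of Psme1 in that cap, had 7.00, 7.40 and 7.65 in Terc-/- arrays, 7.58, 7.37 and 7.35 in Terc+/- arrays and 6.88, 7.51 and 6.69 in Terc+/+ arrays, a log2 fold change of 0.32 (SE 0.23, adjusted p = 0.715) in Terc-/- and 0.41 (adjusted p = 0.718) in Terc+/-. These came to 0.16 and 0.24 without Terc+/+ replicate 3, its lowest array.

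The means of these partners thus lay in opposite directions, and neither passed the test. Psme3, the nuclear activator, named after its values were seen, had 10.61, 10.38 and 10.38 in Terc-/- arrays, 10.37, 10.84 and 10.71 in Terc+/- arrays and 11.53, 10.63 and 10.89 in Terc+/+ arrays. Its log2 fold change in Terc-/- was -0.56 (SE 0.23, limma adjusted p = 0.434), and -0.62 without Terc+/+ replicate 3. Terc+/+ replicate 1 was its highest array, and without that one it was -0.30. Psme3ip1, whose protein binds Psme3, had 9.84, 9.72 and 9.59 in Terc-/- arrays, 9.68, 9.87 and 9.95 in Terc+/- arrays and 9.54, 9.36 and 9.52 in Terc+/+ arrays. These did not overlap, at log2 fold changes of 0.25 (SE 0.10, adjusted p = 0.433) in Terc-/- and 0.36 (SE 0.10, adjusted p = 0.318) in Terc+/-, and 0.27 and 0.39 without Terc+/+ replicate 3. The second probe of Psme3ip1 gave less over all arrays, 0.11 in Terc-/- and 0.24 in Terc+/-.

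**Figure D5:**
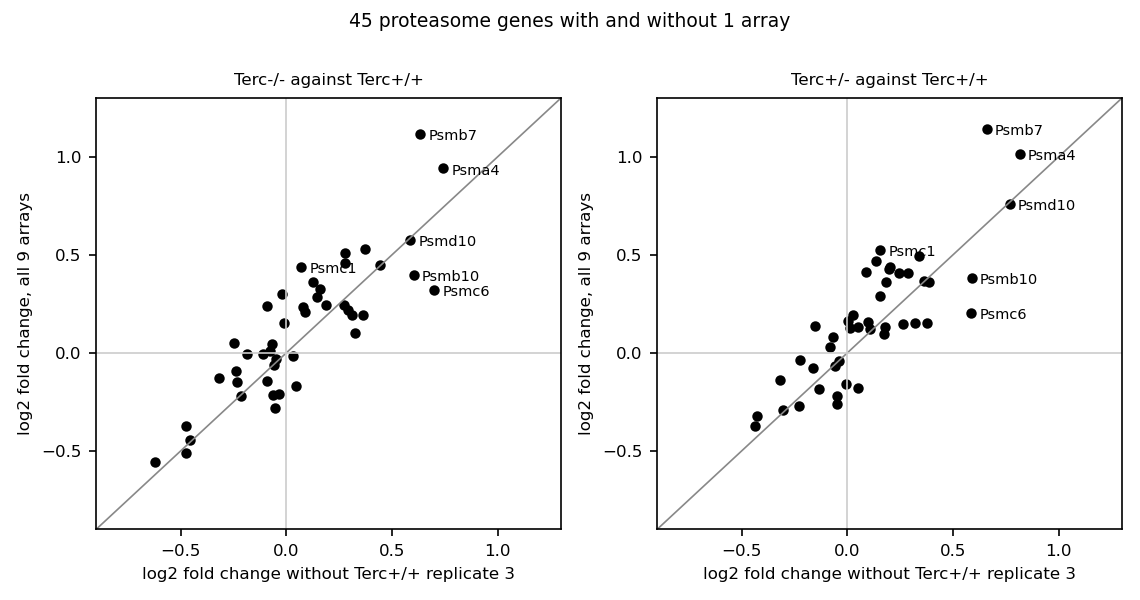
Log2 fold change of the 45 proteasome genes with all 9 arrays (vertical axis) and without Terc+/+ replicate 3 (horizontal axis), for Terc-/- against Terc+/+ (left) and Terc+/- against Terc+/+ (right); the diagonal marks equal values. Psmb7 and Psmc1 lie above the diagonal, Psmb10 and Psmc6 below it, and Psmd10 on it.

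Where a gene had further probes, these gave a check of direction that used the same arrays. The 18 genes with more than 1 probe had 22 further probes, and 17 of these had the sign of the probe used in Terc-/- against Terc+/+, and 18 in Terc+/- against Terc+/+. Psmd7, a lid subunit, was among the exceptions, with a log2 fold change in Terc-/- of 0.22 by the probe used (0.29 without Terc+/+ replicate 3) and -0.06 by the other. Psmd6, also of the lid, gave -0.17 and 0.31, and its used probe gave 0.04 without Terc+/+ replicate 3, its highest array.

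The wider pathway was read from 5 lists with 35 measured genes, none of them members. Limma called 0 of 35 in every comparison. In Terc-/- against Terc+/+ unadjusted p was under 0.05 for 3 with a higher mean (background 5.3%) and 4 with a lower mean (background 5.31%). The counts were 4 (background 4.73%) and 2 (3.86%) in Terc+/- against Terc+/+, and 2 (0.814%) and 0 (0.943%) in Terc-/- against Terc+/-. In the mean of Terc-/- and Terc+/- against Terc+/+ they were 4 (background 6.14%) and 4 (5.58%). The median log2 fold change was 0.06 in Terc-/- and 0.05 in Terc+/-, or 0.05 and -0.02 without Terc+/+ replicate 3. Without that array unadjusted p was under 0.05 for 7 with a higher (background 8.33%) and 6 with a lower mean (background 7.27%) in Terc-/-. In Terc+/- the counts were 5 (background 7.97%) and 6 (5.83%). In those fits 1 of 35 was called in Terc-/- (background 1.54% of all features) and 0 in Terc+/- (background 0.15%). Among the enzymes and shuttles bound to the proteasome (10 genes), Ube3c, a ubiquitin ligase that extends chains on its substrates, had 10.00, 10.11 and 9.98 in Terc-/- arrays, 9.79, 9.89 and 9.72 in Terc+/- arrays and 9.42, 9.41 and 9.67 in Terc+/+ arrays. Its log2 fold change in Terc-/- was 0.53 (SE 0.09, limma adjusted p = 0.106). Without Terc+/+ replicate 3, its highest Terc+/+ array, it was 0.61 and passed the test (adjusted p = 0.0228), as it did in no other fit that left out 1 array, where the adjusted p reached 0.405. Among the other proteasome factors (6 genes), Zfand2a, a stress-induced protein that binds the 19S particle, had 9.80, 10.20 and 10.24 in Terc-/- arrays, 9.86, 9.64 and 9.50 in Terc+/- arrays and 9.39, 9.40 and 9.18 in Terc+/+ arrays, a log2 fold change of 0.76 in Terc-/- (SE 0.14, adjusted p = 0.119), or 0.69 without that array.

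The 10 regulators of proteasome gene transcription had 5 higher and 5 lower means in both comparisons with Terc+/+. Nfyb, a subunit of NF-Y, had 9.79, 9.64 and 9.38 in Terc-/- arrays, 9.77, 9.52 and 9.70 in Terc+/- arrays and 9.31, 9.10 and 9.19 in Terc+/+ arrays, a log2 fold change of 0.47 in Terc+/- (SE 0.12, limma adjusted p = 0.281), or 0.46 without Terc+/+ replicate 3. Mafk, a small Maf protein that pairs with Nfe2l1, had 5.99, 6.03 and 6.31 in Terc-/- arrays, 6.05, 6.10 and 6.12 in Terc+/- arrays and 6.39, 6.46 and 6.80 in Terc+/+ arrays, a log2 fold change of -0.46 in Terc+/- (SE 0.13, adjusted p = 0.318), or -0.33 without it. Both genes had small p-values but in opposite directions. The 8 genes of interferon-induced antigen processing had 4 higher and 4 lower means in Terc-/- and 2 and 6 in Terc+/-, and unadjusted p was under 0.05 for 0 of them in either comparison. Leaving out Terc+/+ replicate 3 gave 3 higher and 5 lower means in Terc-/-, with unadjusted p under 0.05 for 1 higher and 0 lower, and 2 and 6 in Terc+/-, with 1 higher and 2 lower. The backgrounds of these p-values, higher and lower, were 8.33% and 7.27% in Terc-/- and 7.97% and 5.83% in Terc+/-. Of the ubiquitin list 1 gene, Uba6, was measured, at 0.06 in Terc-/- and -0.10 in Terc+/-, or 0.19 and 0.03 without Terc+/+ replicate 3.

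The 16 pluripotency markers had 7 higher and 9 lower means in both Terc-/- and Terc+/- against Terc+/+, with medians of -0.13 and -0.14, or -0.14 in each without Terc+/+ replicate 3. In Terc-/-, unadjusted p was under 0.05 for 4 with a higher mean (background 5.3%) and 4 with a lower mean (background 5.31%). Limma called 1 of the 16 (background 0.0536%), Lin28a, an RNA-binding protein (adjusted p = 0.0458). It had 10.15, 10.20 and 10.14 in Terc-/- arrays, 10.00, 9.90 and 9.95 in Terc+/- arrays and 9.35, 9.20 and 9.55 in Terc+/+ arrays, a log2 fold change of 0.80. The call was kept in 1 of the 9 fits that left out 1 array, the one without Terc+/+ replicate 3 (0.89, limma adjusted p = 0.0145). In the other 8 it was lost, for example without Terc+/+ replicate 1 (0.79, limma adjusted p = 0.181), and the adjusted p reached 0.267. In Terc+/-, unadjusted p was under 0.05 for 4 markers with a higher (background 4.73%) and 1 with a lower mean (background 3.86%), and 0 were called. The 32 fibroblast markers had 27 higher means in Terc-/- and 9 in Terc+/- than in Terc+/+, with a median log2 fold change of 0.51 in Terc-/- and -0.13 in Terc+/-, 0 called and unadjusted p under 0.05 for 0. When Terc+/+ replicate 3 was left out there were 14 and 3 higher means, and the medians were -0.10 and -0.71. The members' medians in the same comparisons were 0.15 and 0.15, or 0.03 and 0.10 without that array.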

How the data were processed

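RNA of 9 ntESC samples (3 per genotype) was measured on single-colour bead arrays. The values used were the log2 values the authors deposited, 1 per probe and array. Their software, background correction and normalization are not given in the sources used here. Their scale was read from the values, which ran from 5.11 to 14.8 with medians of 5.94 in every column. A table of raw signals was not used, because its 18 columns (9 arrays on 2 chips) match no sample label, so chip could not be fitted as a batch either.

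Of 25697 probes, 23141 had 1 gene symbol in the platform annotation, 0 several and 2556 none. All 23141 matched the RefSeq gene table (GRCm38.p6) by Entrez identifier, with 0 symbols changed. The files name no genome build.

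The 3 genotypes were fitted in 1 model with limma 3.58.1 in R 4.3.3 (6 residual degrees of freedom). P-values were two-sided and adjusted by Benjamini-Hochberg over 18666 features, and a feature was called at an adjusted p under 0.05. Precision is limited by 3 arrays per genotype, with a median standard error of 0.11 over all features. The script was tested on simulated data with independent noise and larger changes than those of the members. That test does not show what the fit recovers at the members' differences. Members and lists were chosen with earlier results of these data known, so no p is adjusted over a list.

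Values per array are given for called members, the 4 with the smallest p in each comparison, the cutting subunits with Psme1 and Psme2, and the 3 with the widest range. Of the other lists, up to 2 genes with the smallest p per comparison are named. Alternatives varied the probe choice, normalization, filter, variance model, array weights, arrays in the fit, a fibroblast covariate, a replicate block and each array.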

Additional observations from a re-analysis of the deposited data

How the results depend on the processing

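Of 1274 values of 18 named members, 1212 kept direction and side of the threshold, 30 newly passed it, 0 fell below it and 32 changed sign. No value could fall below it, because 0 members were called in the fit reported. Many values could not change sign either. The variance model, the replicate block and the fit of only the arrays compared leave the fold change as it was. So do testing every probe and leaving out an array of a genotype not compared. The 1212 are therefore not a measure of stability.

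In Terc-/- against Terc+/+, features called were 10 in the fit reported and 5 with the mean of a gene's probes, 31 after cyclic loess, 0 with a mean above 6, 0 with trend and robust variance, 0 with only the arrays compared, 2999 with array quality weights and 145 with the fibroblast covariate. In the mean of Terc-/- and Terc+/- against Terc+/+ they were 36 in the fit reported and 0 with a mean above 6, 0 with trend and robust variance, 3365 with weights and 526 with the covariate. In Terc+/- against Terc+/+ they were 0 in the fit reported, 643 with weights and 189 with the covariate. The cause of these changes was not tested. Among features with a mean above 6, unadjusted limma p was under 0.05 with a higher mean for 6.86% in Terc-/-, 5.64% in Terc+/- and 8.27% in the mean of both. With a lower mean the shares were 6.98%, 4.75% and 7.63%. Of the 42 members in that set, 7, 6 and 8 had a higher mean at that p, and 3, 0 and 3 a lower one.

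Members called with weights were 15 of 45 in Terc-/- (11 higher), 2 in Terc+/- and 20 in the mean of both (16 higher). Of all 18666 features, the fit with weights called 2999, 643 and 3365 in the same comparisons. That fit gave Terc+/+ replicate 1 a weight of 7.01 and Terc+/+ replicate 3 a weight of 0.214, so it rests largely on 1 Terc+/+ array. With the covariate, 3 members were called in Terc+/- (Psma4, Psmb7 and Psmd10) and 5 in the mean of both (these with Psmd11 and Psme3ip1). The shares of all features called were 1.01% and 2.82%. The members' median in Terc-/- was 0.090 with the mean of probes and 0.068 with weights, and with weights it was 0.091 in the mean of both.

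Leaving out each array in turn, features called ranged from 0 to 287 in Terc-/-, 0 to 28 in Terc+/- and 0 to 461 in the mean of both against Terc+/+, with the highest counts always without Terc+/+ replicate 3, and were 0 in Terc-/- against Terc+/-. In the mean of both, where 36 were called with all arrays, the count was 0 without Terc+/+ replicate 1 or 2, Terc+/- replicate 1 or 3, or Terc-/- replicate 1 or 2, 2 without Terc-/- replicate 3, and the count was 38 without Terc+/- replicate 2. In Terc-/-, where 10 were called with all arrays, the count was 4 without Terc+/- replicate 1 and 0 without any other array but Terc+/+ replicate 3. Members called ranged from 0 to 1 in Terc-/- and in the mean of both. The members' median ranged from 0.029 to 0.17 in Terc-/-, 0.099 to 0.18 in Terc+/-, -0.090 to -0.039 in Terc-/- against Terc+/-, and 0.034 to 0.16 in the mean of both; without Terc+/+ replicate 2 the last was 0.099.

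Sign changes: with weights, Psmd9 in Terc-/- was 0.0068, Psmb8 0.037 and Psmb9 0.043 in Terc+/-, Psmb8 0.010 in the mean of both and Psmb7 0.087 in Terc-/- against Terc+/-. With the mean of probes Psmd9 in Terc-/- was 0.12, and with the covariate Psmb9 was 0.040 and Psmd11 -0.072 in Terc-/- against Terc+/-. Leaving out arrays gave Psmd9 from -0.099 to 0.021 in Terc-/- and, in Terc+/-, Psmb8 from -0.092 to 0.0040, Psmb9 from -0.29 to 0.049 and Psmd4 from -0.15 to 0.020. In Terc-/- against Terc+/- it gave Psma4 from -0.32 to 0.22, Psmb10 from -0.059 to 0.14, Psmb7 from -0.31 to 0.29, Psmb8 from -0.062 to 0.026, Psmc1 from -0.20 to 0.0012, Psma2 from -0.028 to 0.27, Psmb5 from -0.21 to 0.059, Psmd11 from -0.080 to 0.11, Psmb6 from -0.18 to 0.087 and Psme2 from -0.23 to 0.091.

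With the replicate number as a block, features called were 0 in Terc-/- against Terc+/+ and 0 in the mean of both against Terc+/+, and members called were 0 in every comparison. Correlations of the deviations from the genotype means ran from -0.60 to 0.45 for same-numbered arrays and from -0.50 to 0.72 for differently numbered ones. The deviations of the 3 arrays of a genotype sum to 0, so these values cannot decide whether the numbers pair the samples.

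Detection against background was not available for the deposited values, so the dim Psma1, Psma6 and Psmb8 carry no firm level. With 3 arrays per genotype, a difference near the median standard error of all features, 0.11, could not be detected. The standard errors of the members ran from 0.080 to 0.49 in Terc-/- against Terc+/+. Much larger differences, such as 1.12 for Psmb7, did not pass the test there.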
